A study of Mus musculus with 6 samples.

Results

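Hormone-low wells are the islet wells that held little RNA of the 4 main islet hormones, and most of them carried genes of the islet's supporting cells. Wells were selected on the measured shares of these hormones: a well counted as hormone-low when insulin (Ins1 and Ins2 summed) was under 3.3%, somatostatin (Sst) under 0.73%, glucagon (Gcg) under 2.3% and pancreatic polypeptide (Ppy) under 10% of its UMIs. UMIs are unique molecular identifiers, which count captured RNA molecules. 115 of 2115 kept wells met the rule, out of 2304 wells in all. Kept wells had at least 500 UMIs and at most 20% of UMIs from mitochondrial genes. Members were then sorted by summed UMIs of an endothelial set (Plvap, Kdr, Flt1, Esm1, Emcn), a stromal or duct set (Rgs5, Spp1, Clu) and a macrophage set (Cd74, C1qb, C1qc), with at least 3 UMIs required. 51 wells were sorted to the endothelial set, 30 to the stromal or duct set and 20 to the macrophage set, and 14 stayed unsorted. The 30 stromal or duct wells were divided into 11 where Rgs5 exceeded Spp1 and Clu together and 19 where it did not.

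The wells came from dissociated, FACS-sorted islet cells of male Sox9-CreER; tdTomato mice, read out by MARS-seq, in which RNA molecules of each well are counted at their 3' ends. All mice received tamoxifen (8 mg, from an age of 10 weeks) and an operation at 12 weeks, either a sham operation or a partial pancreatectomy (ppx), and islets were taken after 4 weeks of recovery. 3 plates were sham and 3 were ppx. Sham 1 and ppx 1 held tomato-positive cells, sham 3, ppx 2 and ppx 3 tomato-negative cells, and sham 2 a mixture. Sox9 is a transcription factor of duct cells, so tamoxifen switches on tdTomato in cells that express Sox9 at that time and in their descendants. The labels give Sox9-lineage traced cells as the source of all 6 plates, the tomato-negative ones included. The labels do not tie plates to individual pancreata, so p-values measure the spread between plates, which may be technical.

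Islets are crossed by a dense bed of fenestrated capillaries. Plvap forms the diaphragms of their fenestrae, Kdr and Flt1 are receptors for vascular endothelial growth factor (VEGF), which endocrine cells secrete, Esm1 is a secreted proteoglycan induced by VEGF, and Emcn is a sialomucin of capillary and venous endothelium. Pericytes, which carry Rgs5 and Pdgfrb, wrap these capillaries, and resident macrophages present antigen on MHC class II (chaperoned by the invariant chain Cd74) and secrete complement C1q. Duct epithelium, which carries Spp1, Sox9 and keratins, lies outside the islet and can be carried along during isolation.

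The sort sets rarely met in the same well. 96 members had at least 3 UMIs of 1 set alone, 4 reached 3 UMIs in a pair of sets and 1 in all 3 sets. 78 of the 101 sorted wells had no UMI of either other set. The sum of the well's own set ran from 5 to 51 (median 18) in endothelial wells, from 3 to 142 (median 18) in stromal or duct wells, and from 5 to 120 (median 45) in macrophage wells. Since these sets chose the wells, their levels describe the sort and are not tested.

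**Figure D1:**
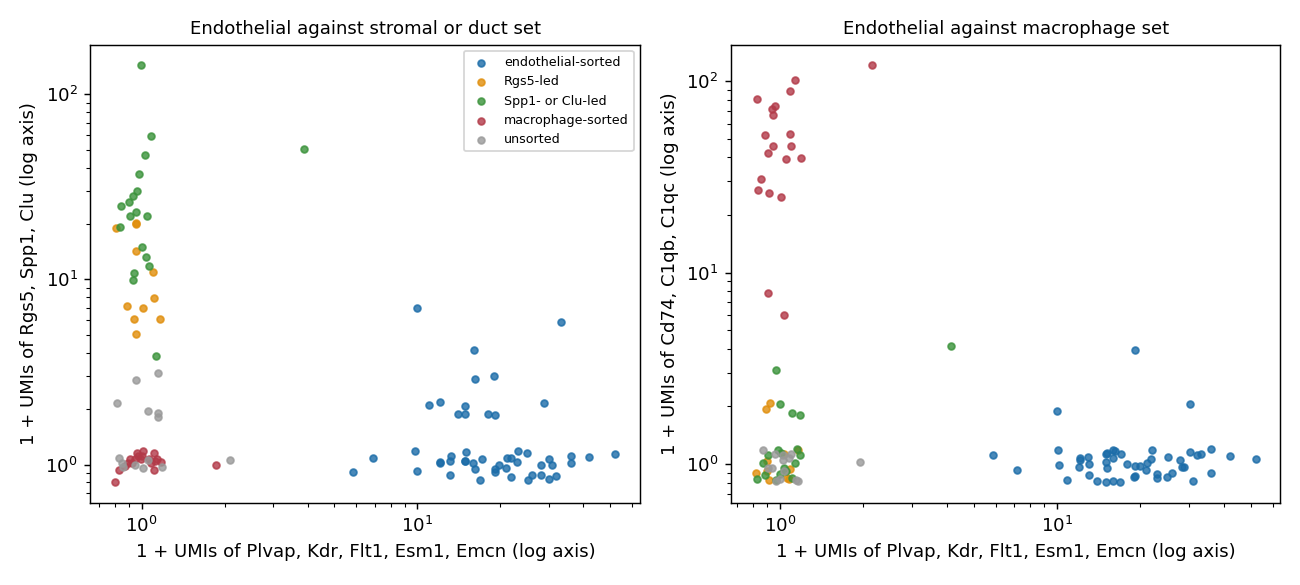
Each point is 1 of the 115 hormone-low wells, coloured by the kind it was sorted to. The horizontal axes give 1 plus the UMIs of the endothelial set and the vertical axes 1 plus those of the stromal or duct set (left) or the macrophage set (right), all on log axes with a small random offset. Most wells lie along an axis, as 78 of the 101 sorted wells had no UMI of the other sets.

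Each hormone threshold fell in a gap among the wells that were under the other thresholds. These hormone shares chose the wells, so the gaps describe the selection and are not evidence of a separate group. The highest insulin share among members was 3.15% and the lowest among wells kept out by insulin was 4.55%. For Sst these values were 0.475% and 0.902%, for Gcg 1.54% and 5.19%, and for Ppy 8.33% and 13.98%. The members were not free of hormone RNA: Ins1 was seen in 51 of 51 endothelial wells at 7169 CPM (UMIs of the gene per 1000000 UMIs, pooled over the wells), against 85013 CPM in the 2000 other kept wells. Iapp, the amyloid peptide of beta cells, was seen in 50 of 51 endothelial wells at 4403 CPM, against 47454 CPM in the other kept wells. The share of insulin in the pooled members was 0.446% to 1.25% over the 6 plates, while that of all kept wells was 10.0% to 18.7%.

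Endothelial-sorted wells carried endothelial genes beyond the 5 that sorted them. The other 20 listed endothelial markers summed to 10997 to 39826 CPM per well (median 24035), against a median of 415 CPM in the other kept wells. 18 of these 20 had a UMI in endothelial wells and 15 in the far more numerous other kept wells. Plvap was seen in 50 of 51 wells at 4574 CPM, against 3.15 CPM (21 of 2000 wells) in the other kept wells. Flt1 was seen in 49 wells, Kdr in 46, Emcn in 46 and Esm1 in 45. In the other kept wells, which were deeper (median 3576 against 836 UMIs), these 5 genes stood between 1.64 and 4.03 CPM.

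Among genes the sort did not use, Ly6c1, a surface antigen of capillary endothelium, was seen in 50 of 51 endothelial wells at 4276 CPM, and in 20 of 2000 other kept wells. Igfbp3, which binds insulin-like growth factors, reached 3680 CPM in 35 wells. Nrp1, the VEGF co-receptor, stood at 3510 CPM in 46 wells. Pecam1, the platelet endothelial adhesion molecule, stood at 1127 CPM, Eng at 1766 CPM and Podxl, an anti-adhesive sialomucin, at 1808 CPM. Other leading genes were the lipid phosphatases Plpp1 (2191 CPM) and Plpp3 (3021 CPM), the receptor phosphatase Ptprb (1127 CPM), Adgrf5 (893 CPM), Mmrn2 (851 CPM), Clec14a (766 CPM), Cd300lg (915 CPM) and thrombomodulin (Thbd, 723 CPM). Cldn5, the tight junction claudin of many endothelia, and the arterial genes Sox17 and Gja5 had no UMI in the 51 wells, and neither did the fatty acid transporter Cd36. A count of 0 says only that no UMI of the gene was read in these shallow wells, and the reason was not tested.

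By pathway, 20 listed genes of VEGF, Notch and angiopoietin signalling summed to 18719 CPM in endothelial wells and 289 CPM in the other kept wells, and 19 and 16 of them had a UMI. The ligand Vegfa was the reverse: it stood at 63.8 CPM (3 of 51 wells) there and at 236 CPM (1040 of 2000 wells) in the other kept wells, which are mostly endocrine. The Notch ligand Dll4 was seen in 7 wells and the angiopoietin receptor Tek in 16. Those of caveolae and lipid handling summed to 9232 against 263 CPM (11 and 12 of 13 with a UMI), with Fabp4 (893 CPM), Ehd4 (1149 CPM) and Gpihbp1 (362 CPM), which holds lipoprotein lipase on capillaries. Lpl, the lipase itself, had no UMI in endothelial wells, 968 CPM in Rgs5-led wells and 223 CPM in the other kept wells. Basement membrane genes summed to 11125 against 57.2 CPM (12 and 13 of 14), led by Sparc (4914 CPM), Col4a1 (1829 CPM) and Col4a2 (1404 CPM). Endothelial transcription factors summed to 5892 against 154 CPM (13 and 9 of 14), among them Epas1 (2297 CPM in 42 wells), Sox18 (532 CPM) and the ETS factors Erg (468 CPM) and Ets1 (468 CPM).

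Promoter sequences were looked up for the 5 endothelial sort genes, since ETS factors bind the core GGAA and the sort genes share a cell type. The RefSeq table (GRCm38.p6) has entries for 4 of them, each 300 bases from 250 before to 50 after the start. The motif GGAA was counted on either strand, so TTCC is counted as well. It occurred 6 times at Emcn, 5 at Kdr, 4 at Esm1 and 4 at Flt1. Of 32851 promoters of this length, 96.0% held at least 1 copy and the median was 3, so the presence of the motif sets none of the 4 apart. Emcn (chr3:137340828-137341127, plus strand), with the most copies, and Esm1 (chr13:113209409-113209708, plus strand), which with Flt1 had the fewest, are shown 5' to 3' with GGAA and TTCC in capitals. A match is a string of letters and not a measured binding site.
Emcn: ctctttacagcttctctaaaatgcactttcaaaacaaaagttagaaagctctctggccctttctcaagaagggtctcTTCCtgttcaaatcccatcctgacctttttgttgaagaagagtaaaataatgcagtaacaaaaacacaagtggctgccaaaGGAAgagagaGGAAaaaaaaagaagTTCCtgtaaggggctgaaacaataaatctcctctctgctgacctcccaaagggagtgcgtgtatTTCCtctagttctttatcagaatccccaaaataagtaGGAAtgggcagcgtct
Esm1: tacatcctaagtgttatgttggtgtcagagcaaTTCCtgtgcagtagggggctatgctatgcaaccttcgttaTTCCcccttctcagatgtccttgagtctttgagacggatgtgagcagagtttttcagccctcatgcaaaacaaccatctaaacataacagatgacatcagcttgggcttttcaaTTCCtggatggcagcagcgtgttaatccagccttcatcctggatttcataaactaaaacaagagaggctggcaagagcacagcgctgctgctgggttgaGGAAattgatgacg

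Rgs5-led wells carried pericyte and smooth muscle genes. Rgs5, a regulator of G-protein signalling that marks pericytes, was seen in 11 of 11 wells at 13548 CPM, against 1.51 CPM in the other kept wells. It stood at 14003 CPM in sham 2, 12975 in sham 3, 14823 in ppx 2 and 13055 in ppx 3, plates that held 2, 3, 2 and 4 such wells. Rgs5 chose these wells, so its level is a description. The 12 pericyte markers other than Rgs5 summed to 13185 CPM, against 2.02 CPM in the other kept wells, and only Kcnj8 had no UMI. Mgp, a matrix protein that inhibits calcification, reached 7742 CPM in 11 wells. The contractile genes Acta2 (3629 CPM in 8 wells), Myl9 (3024 CPM), Tpm2 (2177 CPM) and Myh11 (2177 CPM) were led by 1 well to the extent of 24% to 40% of their UMIs. Notch3, the Notch receptor of mural cells, was seen in 6 wells, Pdgfrb, the receptor for platelet-derived growth factor, in 6 and Cspg4 in 6. The fibroblast genes Col1a1, Dcn and Lum had no UMI in these wells, while Col1a2 stood at 1089 CPM and Col3a1 at 726 CPM. None of the 5 endothelial sort genes had a UMI in Rgs5-led wells, and Sparc (5443 CPM) and Igfbp7 (6532 CPM) were at levels near those of endothelial wells.

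Spp1- or Clu-led wells carried duct epithelial genes more than stromal ones, which goes against the name stromal for them. The 14 duct markers other than Spp1 and Clu summed to 5001 CPM in them, against 920 CPM in the other kept wells and 484 CPM in Rgs5-led wells. All 14 had a UMI there, as they did in the other kept wells. 2 of 10 fibroblast markers and 2 of 13 pericyte markers, Rgs5 among them, had one. The pericyte markers summed to 437 CPM (11 of 19 wells), against 26733 CPM in Rgs5-led and 3.53 CPM in the other kept wells. The fibroblast markers summed to 607 CPM (12 of 19 wells), against 15725 and 50.3 CPM. Spp1, a secreted phosphoprotein of duct cells, was seen in 17 of 19 wells at 6822 CPM. Clu, a secreted chaperone, was seen in all 19, but also in 1099 of 2000 other kept wells (333 CPM), so Clu alone is a weak mark. 446 other kept wells had at least 3 UMIs of the stromal or duct set, against 2 for the endothelial and 2 for the macrophage set. Sox9 was seen in 7 of 19 wells at 510 CPM, in 33 of 2000 other kept wells at 4.79 CPM, and in no endothelial, Rgs5-led or macrophage well. The keratins Krt18 (1117 CPM in 14 wells), Krt8 (680 CPM in 13) and Krt19 (340 CPM in 8), the adhesion molecule Epcam (728 CPM), Wfdc18 (1821 CPM in 11) and the claudin Cldn3 (291 CPM) were read in them.

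3 of these 19 wells were led by other genes. A ppx 1 well of 7002 UMIs held 2788 UMIs of ghrelin (Ghrl), the hormone of epsilon cells, and a ppx 3 well of 8139 UMIs had 42.4% of its UMIs in acinar enzyme genes such as Ctrb1 (911 UMIs) and Prss2 (453 UMIs). A sham 1 well of 3446 UMIs was led by Ppy (287 UMIs, 8.33%, just inside the threshold). These wells were singled out after their values were seen. Without them, the other 16 wells had Spp1 at 11990 CPM and Clu at 10662 CPM, each in 16 of 16 wells, and Krt18 at 1902 CPM and Sox9 at 885 CPM. Iapp stood at 2478 CPM in these 16 wells and at 10212 CPM with the Ppy-led well among them.

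Macrophage-sorted wells carried MHC class II and complement genes. The 14 macrophage markers outside the sort set summed to 75578 CPM in the 20 wells, against 89.6 CPM in the other kept wells. Cd74 was seen in 20 of 20 wells at 18214 CPM, against 4.91 CPM in the other kept wells. The class II chains H2-Aa (16465 CPM), H2-Ab1 (10344 CPM) and H2-Eb1 (11618 CPM), the protease Ctss (7495 CPM), the lipid carrier Apoe (18139 CPM), complement C1qa (2049 CPM), C1qb (4122 CPM) and C1qc (3323 CPM), and the growth factor receptor Csf1r (2324 CPM) were read there. Adgre1, which encodes F4/80, was seen in 10 wells, and the chemokines Ccl3 (1424 CPM), Ccl4 (1649 CPM) and Cxcl2 (1474 CPM) in 14, 11 and 9 wells.

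2 of the 20 wells were led by immunoglobulin genes instead, which plasma cells transcribe. A sham 3 well of 8006 UMIs held 2333 UMIs of Igkc, 2328 of Igha and 524 of Jchain, and a ppx 3 well of 3073 UMIs held 397, 383 and 100. In the remaining 18 wells Igha stood at 415 CPM, Cd74 at 24770 CPM and Apoe at 25081 CPM. By plate, Cd74 in these 18 wells stood at 18357 CPM in sham 2, 27387 in sham 3, 20857 in ppx 2 and 29191 in ppx 3. These wells too were singled out after their values were seen.

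The 14 unsorted wells were of several sorts, grouped here after their values were seen. Ghrl led 2 of them (2045 UMIs of 5987 in ppx 1 and 1606 of 4895 in sham 1). 2 wells of ppx 1 held matrix genes of fibroblasts, 1 led by Mgp (91 UMIs) with Col3a1 and Col1a1, and 1 led by Dcn (25 UMIs) with Gsn. 2 wells of sham 3 were led by the granins Chga and Chgb, and 2 wells (ppx 2 and sham 3) by Ppy with Pyy. Cd3e, a subunit of the T cell receptor complex, had UMIs in 3 wells and in no other kept well. A ppx 3 well of 697 UMIs held Timp3 (12 UMIs) and Ly6c1 (5 UMIs) and no UMI of the sort sets, and 2 wells of sham 3 had no clear lead.

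**Figure D2:**
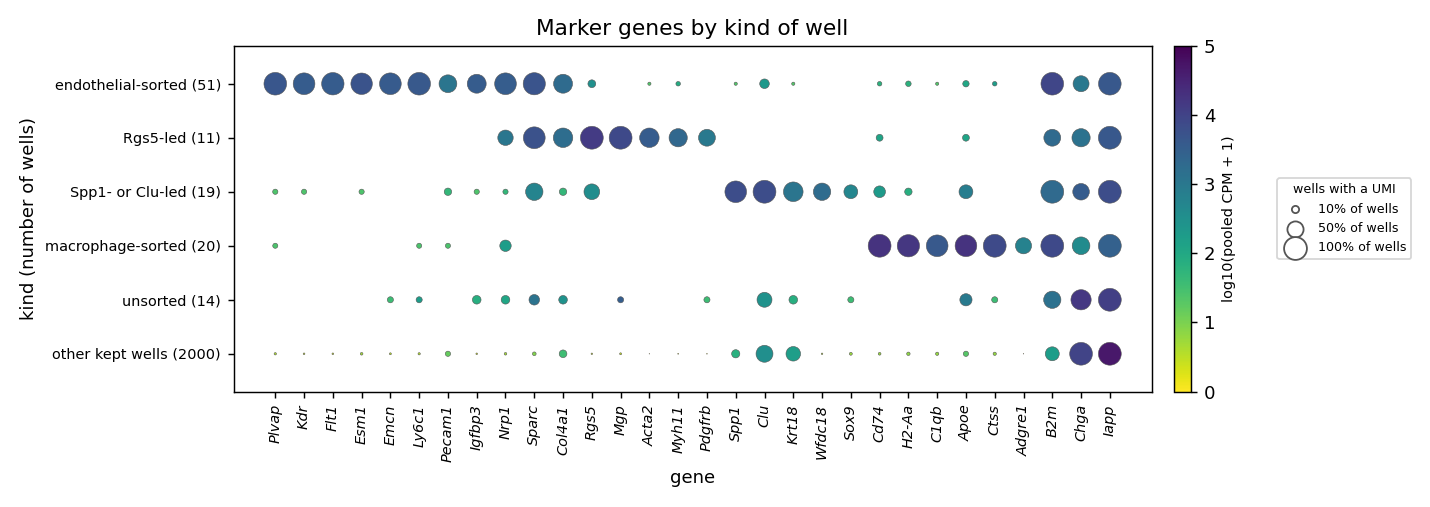
Columns are genes and rows are the 5 kinds of hormone-low well and the other kept wells, with the number of wells in brackets. The area of a dot gives the share of wells with a UMI and the colour gives log10 of the pooled CPM plus 1. Sox9 has a dot in the Spp1- or Clu-led row and none in the endothelial, Rgs5-led and macrophage rows, while Sparc is shared by the endothelial and Rgs5-led rows.

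Hormone-low wells had fewer UMIs than the other wells of their plate. The hormone thresholds set no depth, but they are shares of a well's UMIs, and all kept wells had at least 500 UMIs. Hormone UMIs count in the depth, and insulin alone was 10.0% to 18.7% of the UMIs of all kept wells over the plates. The depth without hormone UMIs was not tested. Their median depth was 1052 UMIs against 2146 in sham 1, 1034 against 4038 in sham 2, 985 against 4204 in sham 3, 1393 against 1967 in ppx 1, 819 against 3774 in ppx 2 and 700 against 3943 in ppx 3. The medians were lower in 6 of 6 plates, with a mean log2 ratio of -1.71 ± 0.78 (SD, n = 6 plates) and a two-sided exact sign-flip permutation p of 0.03125, the smallest that 6 plates allow. The gap was smallest on the tomato-positive plates, where the other wells were shallowest. By kind, the median was 836 UMIs in endothelial, 686 in Rgs5-led, 1052 in Spp1- or Clu-led and 1596 in macrophage wells. The mitochondrial share was higher by 3.32 ± 2.19 percentage points (SD, n = 6 plates; exact sign-flip permutation p = 0.03125), higher in 6 of 6 plates. Hormone UMIs count in the total of a well, so a low hormone share raises the other shares. The selection thus pushes this difference upward, and the mitochondrial share of the UMIs other than hormones was not tested. With at most 10% mitochondrial UMIs allowed, the difference was 0.325 points (p = 0.53, exact permutation) and the depth ratio was -1.08 (p = 0.094, exact permutation). The depth ratio was -0.969 (p = 0.094, exact permutation) with at least 1000 UMIs required. The kinds differed in mitochondrial share, with medians of 12.7% in endothelial, 10.9% in Rgs5-led and 13.2% in Spp1- or Clu-led wells. Macrophage wells (9.15%) and unsorted wells (10.2%) were near the other kept wells (9.62%, all plates together).

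**Figure D3:**
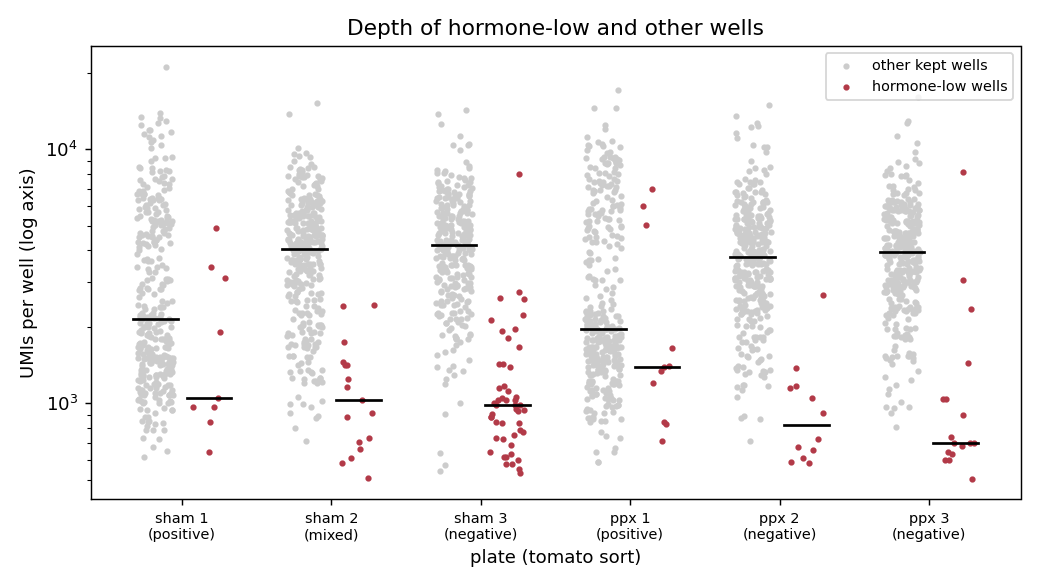
Each point is a kept well, placed by plate (tomato sort in brackets) and by its UMIs on a log axis. Hormone-low wells are red, other kept wells grey, and black bars are medians. The red median lies below the grey median on all 6 plates.

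The kinds were spread unevenly over the plates. Members were 9 of 355 kept wells in sham 1 (2.54%), 17 of 353 in sham 2 (4.82%), 49 of 339 in sham 3 (14.5%), 11 of 356 in ppx 1 (3.09%), 12 of 362 in ppx 2 (3.31%) and 17 of 350 in ppx 3 (4.86%). Sham 3 stood above the rest, with an exact 95% Clopper-Pearson interval of 10.9% to 18.7%, which covers counting error only. Endothelial wells numbered 0, 7 and 30 in sham 1 to 3 and 0, 7 and 7 in ppx 1 to 3. Their share was 8.85% in sham 3 and between 1.93% and 2.00% in sham 2, ppx 2 and ppx 3. Macrophage wells numbered 0, 5 and 9 in the sham plates and 0, 2 and 4 in the ppx plates. Rgs5-led wells numbered 0, 2 and 3 against 0, 2 and 4. Spp1- or Clu-led wells numbered 8, 2 and 0 against 8, 0 and 1.

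**Figure D4:**
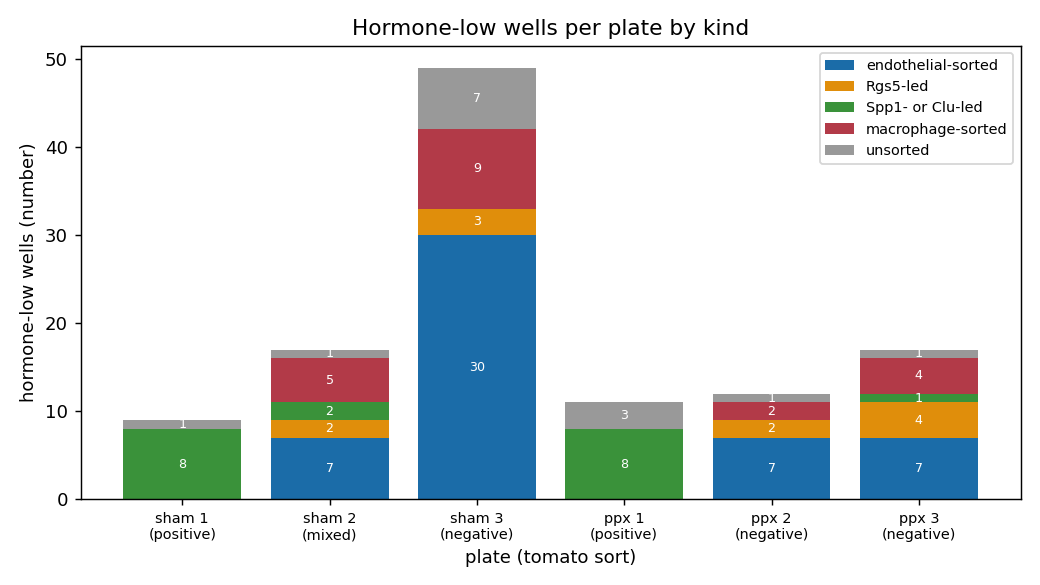
Bars give the number of hormone-low wells on each plate (tomato sort in brackets), divided by kind. Sham 3 holds 49 wells, 30 of them endothelial, and the tomato-positive plates sham 1 and ppx 1 hold no endothelial, Rgs5-led or macrophage well.

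The differences between operations in these shares did not exceed the spread between plates. Hormone-low wells were 3.75% ± 0.96 of kept wells in ppx and 7.27% ± 6.33 in sham plates (SD, n = 3 each; two-sided exact permutation p = 0.7, where 0.1 is the smallest p possible). The difference of -3.51 points was 0.555 points on the tomato-positive plates, -10.4 on the tomato-negative plates, and 0.078 without sham 3. Endothelial wells were 1.31% ± 1.14 against 3.61% ± 4.64 (p = 0.7, exact permutation), a difference of -2.30 points that was 0.320 without sham 3. Macrophage wells were 0.565% ± 0.572 against 1.36% ± 1.33 (p = 0.5, exact permutation). Stromal or duct wells were 1.41% ± 0.85 against 1.42% ± 0.73 (p = 0.9, exact permutation). All 7 shares compared had an adjusted p of 1 (Benjamini-Hochberg).

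By tomato sort, the kinds were on different plates, though the number of plates limits the test. The tomato-positive plates had 711 kept wells between them and no endothelial, macrophage or Rgs5-led well, where, with 3 counts as the limit for a count of 0, 0 of 355 allows a share of up to 0.845% and 0 of 356 up to 0.843%. Spp1- or Clu-led wells were 2.25% of kept wells on each positive plate and 0.095% ± 0.165 on the negative plates (SD, n = 2 and 3; two-sided exact permutation p = 0.1, the smallest possible). Rgs5-led wells were 0 against 0.860% ± 0.296 (p = 0.1, exact permutation). Endothelial wells were 0 against 4.26% ± 3.97 (p = 0.3, exact permutation) and macrophage wells 0 against 1.45% ± 1.08 (p = 0.2, exact permutation). Over the 7 shares the adjusted p was 0.233 for the Spp1- or Clu-led and Rgs5-led wells, and none passed.

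UMIs summed over the hormone-low wells of each plate were compared by tomato sort gene by gene. With edgeR's quasi-likelihood test and operation as a covariate, 21 of 280 genes tested (7.5%) were higher and 35 (12.5%) lower on tomato-positive plates at a Benjamini-Hochberg adjusted p under 0.05. The positive and negative plates did not overlap for any of these 56, but neither did they for 140 of the 280 genes (50%). In such sums, fewer wells of a kind and less RNA per well cannot be told apart, and the counts of wells above stand beside them. For genes of the sort sets, such as Flt1, Plvap, Cd74, Spp1 and Clu, the values and p-values below restate those counts. Other genes read almost only in wells of the same kind follow these counts too. On the negative plates, 99.7% of H2-Eb1 UMIs lay in macrophage wells and 96.4% of Ly6c1 UMIs in endothelial wells. On the positive plates, 100% of Wfdc18 and 97.8% of Krt18 UMIs lay in Spp1- or Clu-led wells. Neither the sort genes nor such genes are separate support for a difference. The call rests on few plates: without sham 1, sham 3 or ppx 1 no gene was called.

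Endothelial genes were lower on the tomato-positive plates, which held no endothelial well. Of 25 listed endothelial markers 9 passed the filter on low counts, as did 12 of 17 macrophage and 6 of 16 duct markers. They passed it through the plates where they were high, so no count or median over them is given. Flt1 had 0 UMIs in sham 1 and ppx 1, and 112, 19 and 26 in sham 3, ppx 2 and ppx 3. It was at least 23.9-fold lower, taking 3 counts over the positive plates as the floor (edgeR adjusted p = 0.0166). Plvap had 1 and 0 UMIs against 136, 27 and 27, a log2 change of -5.95 ± 0.78 (SE, edgeR adjusted p = 0.0166). Emcn, Kdr, Esm1, Ly6c1, Nrp1, Eng, Igfbp3, Plpp1 and Plpp3 were lower as well. 23 of the 35 lower genes had over 50% of their UMIs on the negative plates in endothelial wells and 11 in macrophage wells.

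Macrophage genes were likewise lower there. Cd74 had 4 and 4 UMIs on the positive plates against 410, 38 and 137, a log2 change of -4.73 ± 0.85 (SE, edgeR adjusted p = 0.0246). H2-Eb1 had none against 227, 23 and 97, at least 52.9-fold lower. Rgs5, the pericyte gene, had 8 and 7 UMIs against 37, 32 and 40 and was not called (log2 change -1.67 ± 0.73, edgeR adjusted p = 0.181).

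Duct genes were higher on the tomato-positive plates, which held 16 of the 19 Spp1- or Clu-led wells. Spp1 had 103 UMIs in sham 1 and 153 in ppx 1, against 1, 0 and 0 on the negative plates, a log2 change of 8.89 ± 0.83 (SE, edgeR adjusted p = 0.0166). Wfdc18 had 54 and 16 UMIs against none, at least 51.0-fold higher. Krt18 had 27 and 19 against 2, 0 and 1 (5.26 ± 0.62, SE). Clu, Krt8 and Epcam were higher, as was E-cadherin (Cdh1). Ghrl had 1610 and 4843 UMIs against none, and 99.8% of them lay in the 3 ghrelin wells. Those wells also held over 50% of the UMIs of Rbp4, Cpb2, Ttr, Peg3, Aplp1, Tm4sf4, Alcam and Bsg, so that 9 of the 21 higher genes rested mostly on 3 wells. Without the 6 wells led by ghrelin, immunoglobulin or acinar genes, 33 genes were called (9 higher and 24 lower), 32 of them among the 56. Spp1, Wfdc18, Krt18, Clu, Cdh1, Epcam and Krt8 were among these, while Ttr changed to 0.36 (edgeR adjusted p = 0.732).

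No gene was called for the operation in hormone-low wells as a whole. edgeR's quasi-likelihood test called 0 of 196 genes (0%), 3 had an unadjusted p under 0.05, and DESeq2 called 0. The model held the operation alone and not the tomato sort, which differed between plates and went with the kinds of well they held. The lack of calls therefore says little of the operation's effect within a kind of well. The plates of the operations did not overlap for 4.08% of genes. Mgp had 0, 9 and 18 UMIs in the sham plates and 91, 11 and 26 in the ppx plates (log2 change 3.17 ± 1.08, SE, edgeR adjusted p = 0.996), and the 91 UMIs of ppx 1 came from the 1 unsorted matrix-gene well. Rgs5 stood at 448, 904 and 594 CPM in sham 1 to 3 and 255, 2633 and 1635 CPM in ppx 1 to 3, which overlap. None of the 11 macrophage and 9 endothelial markers tested was called. With at most 10% mitochondrial UMIs, 28 genes were called higher in a fit of 3 plates, and 27 of these had over 90% of their UMIs in the ppx 3 well of acinar genes. The log2 effect of the operation differed between hormone-low and other kept wells for 0 of 8751 genes (0%), with 230 at an unadjusted p under 0.05, a smallest adjusted p of 0.171 and 0 calls by DESeq2. Since 196 genes passed the filter in hormone-low wells alone, this count says little of the operation's effect there for the rest.

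Within endothelial wells, the levels of the sort genes, which chose the wells, are given as a description. Plvap stood at 3405 and 4747 CPM in sham 2 and sham 3 and at 4526 and 5433 CPM in ppx 2 and ppx 3. Kdr stood at 3405 and 3692 against 3017 and 5231 CPM, and Emcn at 4060 and 3622 against 4526 and 4024 CPM. The plates overlapped for each of these 3 genes. Esm1 was lowest in ppx 2 (2011 CPM) and highest in ppx 3 (6640 CPM), with sham 2 (5108 CPM) and sham 3 (5767 CPM) between them.

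1 of 60 genes tested (1.67%) was called in endothelial wells. Bmpr2, a receptor for bone morphogenetic proteins that is prominent in endothelium, stood at 262 and 422 CPM in sham 2 and sham 3 (2 and 12 UMIs) and at 1676 and 1610 CPM in ppx 2 and ppx 3 (10 and 8 UMIs), a log2 change of 1.98 ± 0.24 (SE, edgeR adjusted p = 0.00798). The sham and ppx plates did not overlap for it, as for 31.7% of the genes tested. The call was lost with DESeq2 (adjusted p = 0.983), with at least 300 UMIs (0.345), without any filter on low counts (0.811) and on leaving out any of the 4 plates (0.540 to 0.992), while the log2 change stayed between 1.26 and 2.49. Podxl stood at 786 and 1688 CPM against 3185 and 2414 CPM (0.91 ± 0.40, SE, edgeR adjusted p = 0.742). Col4a2 stood at 1179 and 1266 against 1844 and 2012 CPM, and was not called (edgeR adjusted p = 0.924). The hormone shares chose these wells, so the values and p-values of Ins1, Ins2 and Gcg below describe the selection. They are no test of the operation. Of the residual hormones none was called with all 4 plates. Ins1 stood at 4191 and 7736 CPM in the sham plates against 8213 and 7243 CPM in the ppx plates (edgeR adjusted p = 0.924). Ins2 stood at 8121 and 6013 against 4526 and 1006 CPM, and Gcg at 6942 and 3059 against 2514 and 402 CPM (edgeR adjusted p = 0.742 for both). The sham and ppx plates did not overlap for Ins2 and Gcg. On leaving out 1 plate, their log2 changes ran from -2.94 to -0.75 and from -3.74 to -1.09.

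**Figure D5:**
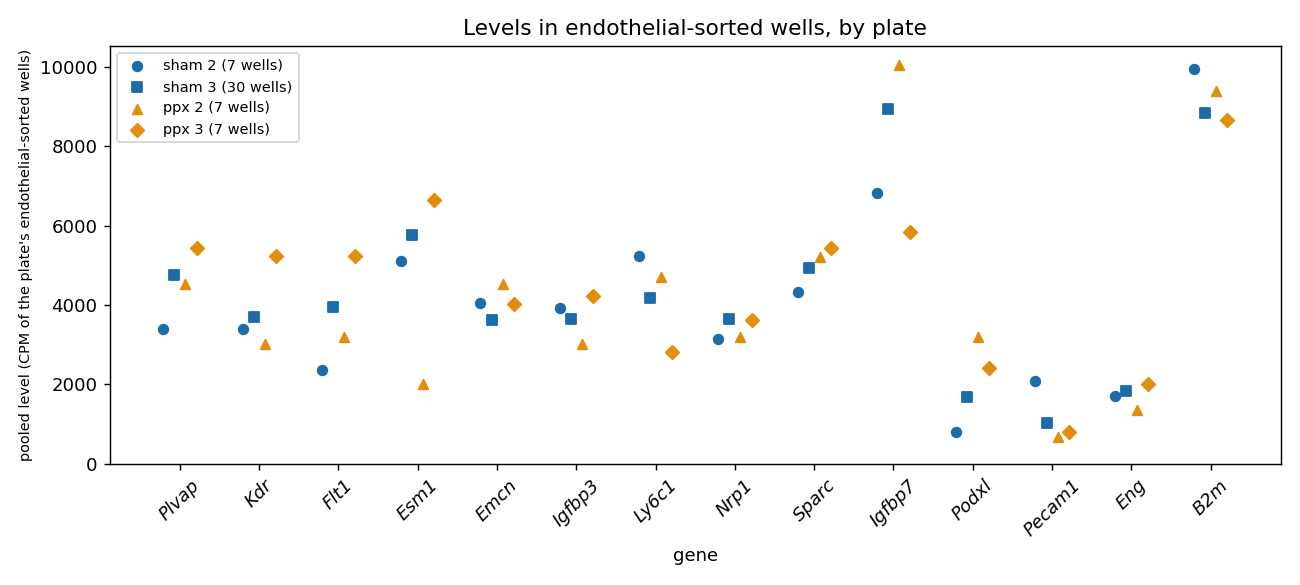
Each marker is the pooled level of a gene, in CPM, over the endothelial wells of 1 plate, with sham plates in blue and ppx plates in orange. The plates interleave for Plvap, Kdr, Flt1, Esm1 and Emcn, and the ppx plates lie above the sham plates for Podxl.

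Proliferation genes were read at 596 CPM, summed over 12 genes, in endothelial wells (21 of 51 wells) and at 237 CPM in the other kept wells. Mki67 had no UMI in any of the 115 hormone-low wells and was seen in 8 of 2000 other kept wells. Of the 12 proliferation genes, 4 had a UMI in endothelial wells, where Tubb5 (447 CPM in 16 wells) and Pcna (106 CPM in 5 wells) are also used by resting cells, and Top2a had 1 UMI.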

How the data were processed

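UMI counts per gene and well were deposited by the authors, 1 table per plate of 384 wells, and are raw. HISAT 0.1.6 and the build mm10 are named in the submitters' processing notes. The software for counting and the annotation were not given in the sources used here. All 92 spike-in rows (3 UMIs in all) were dropped. 96 wells under 500 UMIs and 93 wells over 20% mitochondrial UMIs were left out. No doublet caller was run, and no well name was shared between plates. The rows of the mixed plate are not marked in the tables and were not used, and neither was the authors' MetaCell grouping.

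Members, gene lists, comparisons and the rule for named genes were chosen with earlier results of these data known. By that rule the text draws on sort genes, up to 15 leading genes of a kind, up to 10 called genes per direction whose plates do not overlap (or 5 by smallest p), and members of the lists.

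Exact two-sided permutation of plates was used for shares and exact sign flips for depth. For gene tests, UMIs were summed per plate (plates with at least 5 hormone-low or 3 endothelial wells) and tested by the quasi-likelihood F test of edgeR 4.0.16 after TMM scaling and filterByExpr, with Benjamini-Hochberg adjusted p under 0.05 as the call. DESeq2 1.42.0 was the second tool. Sums held 12155 to 62314 UMIs for hormone-low wells and 4970 to 28439 for endothelial wells, which limits tests to abundant genes. The edgeR fits were also run on simulated sums with the same dispersion for all genes and no difference in kinds of well between plates. The real plates differed in these kinds, so that run does not show how the fits behave on them. CPM is UMIs per 1000000 of the pooled wells. Alternatives changed the UMI minimum, the mitochondrial maximum, the hormone thresholds, the sorting minimum, normalisation and filter, and left out plates or wells.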

Additional observations from a re-analysis of the deposited data

Results flagged for a closer look

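11 of the 96 wells left out for holding under 500 UMIs had at least 3 UMIs of the endothelial set, and 5 had at least 3 UMIs of the stromal or duct set. None had 3 UMIs of the macrophage set. These wells were left out of every main comparison in the report, and there is no control sample to set them against. The setting with at least 300 UMIs took in those of them that reached it. Endothelial and Rgs5-led wells were the shallowest kinds among the kept members, with medians of 836 and 686 UMIs.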

How the results depend on the processing

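Over the 4 main shares, no setting brought the operation's difference to an exact permutation p under 0.05, which the design cannot reach. Leaving out 1 plate moved it between -5.88 and 0.078 points for hormone-low wells, -4.11 and 0.320 for endothelial wells, -0.433 and 0.414 for stromal or duct wells and -1.47 and -0.143 for macrophage wells. The stromal or duct difference also changed sign with at least 1000 UMIs (0.402) and with the hormone thresholds halved (0.273). The depth ratio was -0.969 with at least 1000 UMIs and -1.08 with at most 10% mitochondrial UMIs, and -1.96 to -1.56 on leaving out 1 plate. The mitochondrial difference was 0.325 with the lower maximum and 2.58 to 3.73 on leaving out 1 plate, where 5 plates cannot give p under 0.0625.

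Calls for the operation in hormone-low wells rose from 0 to 28 with at most 10% mitochondrial UMIs and to 38 with no filter on low counts (33 higher, 29 of them with over 90% of their UMIs in the 1 acinar-gene well). In endothelial wells the 1 call became 0 with at least 300 UMIs, with halved hormone thresholds and with DESeq2, 5 with no filter, and 2 to 7 on leaving out 1 plate. For the interaction the count was 3 with at most 10% mitochondrial UMIs, 1 with DESeq2 size factors, 5 with no filter and 0 to 3 on leaving out 1 plate. For the tomato sort the 56 calls became 13 with at least 1000 UMIs, 100 with no filter, 33 without the wells led by ghrelin, immunoglobulin or acinar genes, and 0 to 74 on leaving out 1 plate. Except for the acinar-gene well, the cause was not tested. No tomato fit with at most 10% mitochondrial UMIs, and no endothelial fit with that maximum or with at least 1000 UMIs, could be made because too few plates had enough wells.

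Same-numbered plates paired only in part: their deviations correlated at 0.795, 0.0540 and 0.610. Sham 1 correlated best with ppx 1, the other tomato-positive plate, and sham 3 with ppx 3. Sham 2 correlated best with ppx 3 (0.706) and not with ppx 2. With a replicate block, the count was 0 in hormone-low wells and 0 in endothelial wells, and the permutation p for hormone-low wells within pairs was 0.5. The 6 wells led by ghrelin, immunoglobulin or acinar genes were chosen after seeing the data.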

Other observations

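MHC class I differed between kinds of hormone-low well. B2m, the light chain of class I, stood at 9062 CPM in endothelial wells and 8045 CPM in macrophage wells. It stood at 1935 CPM in Rgs5-led and 1942 CPM in Spp1- or Clu-led wells, and at 168 CPM in the other kept wells. Without the wells led by ghrelin, immunoglobulin or acinar genes, its level was 2879 CPM (Spp1- or Clu-led) and 8948 CPM (macrophage). H2-D1 followed the same order in endothelial (2276 CPM) and macrophage wells (2149 CPM) over Spp1- or Clu-led (461 CPM) and Rgs5-led wells (242 CPM). Ifitm3, an interferon-induced membrane protein, was seen in 32 of 51 endothelial wells at 1766 CPM and in 4 of 2000 other kept wells. These levels describe the kinds and were not tested.

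Early response genes were read in every kind. Fos stood at 1829 CPM in endothelial, 3750 in Rgs5-led, 2355 in Spp1- or Clu-led, 2873 in macrophage and 2221 CPM in the other kept wells. The heat shock genes Hspa1a and Hspa1b were at 2024 and 2573 CPM in macrophage wells, at 0 and 72.8 CPM in Spp1- or Clu-led wells and at 321 and 279 CPM in the other kept wells. Of endoplasmic reticulum chaperones, Hspa5 stood at 787 CPM in endothelial wells and 1991 CPM in the other kept wells.

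Among wells left out for over 20% mitochondrial UMIs, 6 had at least 3 UMIs of the endothelial set, 21 of the stromal or duct set and 1 of the macrophage set. 1 of the 2000 other kept wells had at least 10 UMIs of the endothelial set, and none had 10 of the macrophage set. 1 endothelial well of sham 3 held haemoglobin genes at 344501 CPM.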
